A study of Mus musculus with 26 samples.

Results

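The 134 genes described here lie around Spred1 on mouse chromosome 2. They are the genes of the deposited count table that start between 107 and 128 Mb of chromosome 2 (build mm10) and reach a level of at least 1 CPM (a gene's count scaled to the library's total) in at least 5 libraries. Spred1 itself, Mir674, B2m, Chac1 and ribosomal protein genes were not taken. Of the 262 genes in this window, 124 were left out by the CPM minimum and 4 by name, and the whole table has 24091 genes. Of the members, 18 start below Spred1 and 116 above it.

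The RNA came from sorted LSK cells (Lin-Sca-1+c-Kit+), the bone marrow fraction in which blood stem cells and early progenitors are found. All mice had chronic myeloid leukaemia (CML) on a C57BL/6 strain background. The labels give SCLtTA/BCR-ABL, which lets the BCR-ABL oncogene be switched on in blood stem cells, for EC KO, HSC KO and HSC wt, and call global KO and Spred1 wt CML mice without naming the transgene. The 5 groups were global KO (Spred1 knocked out in the whole animal, 6 libraries), EC KO (Spred1 deleted in endothelial cells, 5 libraries), HSC KO (Spred1 deleted with Mx1-cre, 5 libraries), HSC wt (Spred1 intact, 5 libraries) and Spred1 wt (Spred1 intact, 5 libraries). Mice of HSC KO and HSC wt had 7 doses of 250 µg poly(I:C), 1 every 2 days, to switch on Mx1-cre, which is also active outside stem cells. For the other 3 groups poly(I:C) is not stated, the Cre line of EC KO and the allele of global KO are not named, and ages are not given. The design names an EC wt group, which was not analysed here, so EC KO was set against Spred1 wt.

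Spred1 encodes a protein at the cell membrane that restrains the RAS-ERK pathway. Its neighbours on the chromosome share no pathway with it as a class. They include genes of the mitotic spindle and kinetochore, of chromatin and RNA handling, of mitochondria and of membrane traffic, most of them used by dividing blood progenitors. Neighbouring genes are usually inherited together in crosses, so in a breeding colony the stretch around a targeted gene tends to travel with it. No DNA sequence of the mice themselves was analysed here.

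Total counts lay between 14816071 and 26714325 per library. Spred1, the check of the labels, had 22.4, 33.1 and 44.5 CPM in global KO, 83.9, 80.9, 58.0, 63.0 and 66.0 CPM in EC KO, 28.8, 47.4, 36.7, 32.8 and 31.3 CPM in HSC KO, 96.8, 109, 106, 107 and 101 CPM in HSC wt, and 92.4, 106, 148, 110.1 and 115 CPM in Spred1 wt. Here and below, the 6 global KO libraries are given by their lowest, median and highest value, and the other groups by libraries 1 to 5 in order. CPM values use library sizes scaled by the trimmed mean of M values (TMM). Spred1 fell in global KO, with a log2 difference from Spred1 wt of -1.81 ± 0.146 (adjusted p = 2.86e-08), and in HSC KO, with one from HSC wt of -1.55 ± 0.154 (adjusted p = 4.14e-06). It also fell in EC KO, by a smaller amount, -0.70 ± 0.15 (adjusted p = 0.00527) against Spred1 wt. The ± is the standard error (SE) of the edgeR quasi-likelihood fit of all 26 libraries, and p-values were adjusted by Benjamini-Hochberg over all 13379 genes tested. LSK markers summed to between 1884 and 3329 CPM in every library, with 8 of 8 detected in each group, and T cell markers stayed at or below 4.6 CPM. B or plasma cell markers summed to between 26.6 and 848 CPM and erythroid markers to between 0.502 and 297 CPM, both highest in HSC KO 1. Sorted fractions can differ in their mix of cells, and fewer cells of a type cannot be told apart from less RNA per cell.

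In global KO against Spred1 wt, 3 of the 134 members passed an adjusted p of 0.05, and all of these fell. They were Kcnip3, Spg11 and Sqrdl, and they were 3 of 10 genes called in the whole table, where 0.0747% of the genes tested were called. At an unadjusted p under 0.05 there were 36 members, or 26.9%, against a background of 5.53% of all genes. Of the 36, 19 were higher and 17 lower in global KO. The median absolute log2 difference was 0.12 over members and 0.08 over all genes tested.

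Kcnip3, which codes for a calcium-binding protein of potassium channels that also acts as a transcriptional repressor (calsenilin, or DREAM), starts 10.34 Mb above Spred1. It had 0.646, 1.1 and 1.45 CPM in global KO, 0.711, 1.18, 0.292, 0.59 and 0.798 CPM in EC KO, 0.758, 0.461, 0.799, 0.77 and 0.669 CPM in HSC KO, 0.661, 0.539, 0.696, 1.32 and 0.791 CPM in HSC wt, and 1.41, 13.6, 8.32, 15.1 and 12.4 CPM in Spred1 wt. Spred1 wt libraries 2 to 5 were high, and library 1 of the same group lay among the libraries of the other groups. Kcnip3 fell by this test in global KO, -3.22 ± 0.39 (adjusted p = 4.53e-05) against Spred1 wt. Spred1 wt 1 alone gave a smaller difference when it stood for the group, -0.39 ± 0.52 (adjusted p = 0.993), and without it the difference was -3.51 ± 0.274 (adjusted p = 2.28e-08).

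Spg11 codes for spatacsin, which takes part in renewing lysosomes. It had 33.7, 38.3 and 40.1 CPM in global KO, 28.4, 31.9, 27.6, 25.8 and 33.3 CPM in EC KO, 39.1, 43.6, 43.2, 37.2 and 37.2 CPM in HSC KO, 44.8, 44.1, 40.7, 40.3 and 35.7 CPM in HSC wt, and 38.4, 65.5, 60.0, 59.7 and 65.8 CPM in Spred1 wt. Again Spred1 wt libraries 2 to 5 lay above every other library, and Spred1 wt 1 lay within the range of global KO. The log2 difference of global KO from Spred1 wt was -0.62 ± 0.102 (adjusted p = 0.00471). Spg11 shares 107 bases with Eif3j1 on the opposite strand, tail to tail, and the strand setting of the counting is not stated, so reads in that stretch cannot be assigned to either gene. In all, 37 members overlap another gene of the table, and their counts carry the same limit.

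Sqrdl (Sqor in RefSeq) codes for the mitochondrial enzyme that oxidises hydrogen sulfide. It had 7.43, 8.8 and 12.7 CPM in global KO, 9.12, 6.54, 13.3, 11.8 and 13.4 CPM in EC KO, 7.98, 6.12, 9.27, 9.11 and 9.03 CPM in HSC KO, 7.32, 9.11, 8.3, 9.57 and 11.3 CPM in HSC wt, and 13.2, 18.7, 21.3, 21 and 19.3 CPM in Spred1 wt. Here Spred1 wt 1 lay lowest in its group, just above all global KO libraries and below the highest of EC KO. The difference of global KO from Spred1 wt was -1.01 ± 0.176 (adjusted p = 0.00831).

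**Figure D1:**
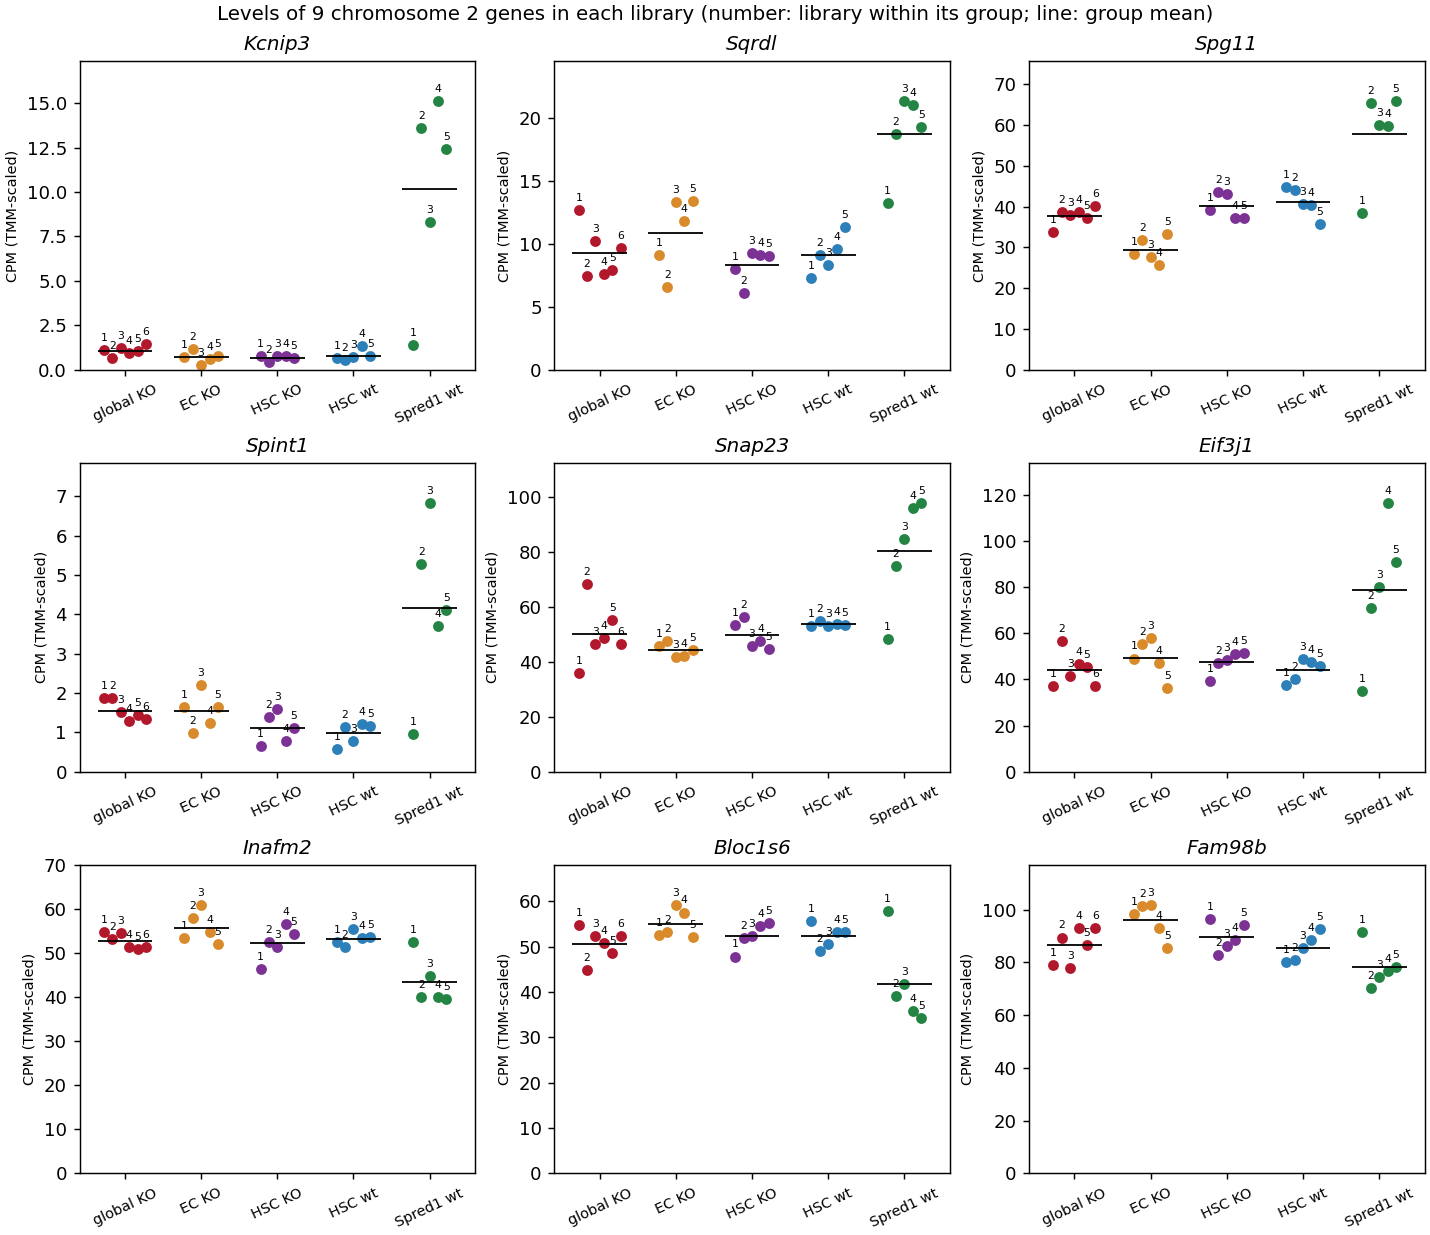
Levels of 9 genes around Spred1 in CPM (vertical axis, from 0) for each library, by group (horizontal axis); points are libraries, numbered within their group, and lines are group means. Spred1 wt libraries 2 to 5 stand above the other libraries at Kcnip3, Sqrdl, Spg11, Spint1, Snap23 and Eif3j1 and below them at Inafm2 and Bloc1s6, with Spred1 wt 1 apart from the rest of its group; Fam98b is the nearest gene above Spred1.

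The promoters of the members called in global KO or HSC wt against Spred1 wt are shown, since the results turn on these genes. They run from 250 bases before to 50 bases after the start, on the strand of the gene, and come from RefSeq (GRCm38.p6). Capitals mark short motifs found on either strand, which were the CCAAT box, the TATA box sequence TATAAA, the GC box GGGCGG, the ETS-type sequence CCGGAAG and the E-box CACGTG. No marked motif overlaps another.
Kcnip3 (chr2:127522045-127522344, minus strand): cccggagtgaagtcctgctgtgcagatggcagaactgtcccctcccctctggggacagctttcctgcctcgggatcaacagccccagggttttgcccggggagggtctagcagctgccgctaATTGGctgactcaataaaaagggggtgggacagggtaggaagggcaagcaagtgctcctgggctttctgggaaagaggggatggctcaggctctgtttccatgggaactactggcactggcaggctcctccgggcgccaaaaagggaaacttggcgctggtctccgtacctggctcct
Spg11 (chr2:122118337-122118636, minus strand): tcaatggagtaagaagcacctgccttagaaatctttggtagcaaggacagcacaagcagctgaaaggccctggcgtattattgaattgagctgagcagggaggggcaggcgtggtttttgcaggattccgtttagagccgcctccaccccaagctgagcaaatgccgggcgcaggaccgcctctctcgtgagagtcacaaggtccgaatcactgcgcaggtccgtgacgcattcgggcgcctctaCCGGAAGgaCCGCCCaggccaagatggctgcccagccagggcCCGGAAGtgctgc
Sqrdl (chr2:122771463-122771762, plus strand): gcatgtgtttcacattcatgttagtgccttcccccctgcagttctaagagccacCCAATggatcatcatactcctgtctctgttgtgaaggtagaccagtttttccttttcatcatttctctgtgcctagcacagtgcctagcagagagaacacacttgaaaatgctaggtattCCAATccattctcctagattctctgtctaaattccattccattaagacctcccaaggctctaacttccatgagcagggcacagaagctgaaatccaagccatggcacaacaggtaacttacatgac
Spint1 (chr2:119237110-119237409, plus strand): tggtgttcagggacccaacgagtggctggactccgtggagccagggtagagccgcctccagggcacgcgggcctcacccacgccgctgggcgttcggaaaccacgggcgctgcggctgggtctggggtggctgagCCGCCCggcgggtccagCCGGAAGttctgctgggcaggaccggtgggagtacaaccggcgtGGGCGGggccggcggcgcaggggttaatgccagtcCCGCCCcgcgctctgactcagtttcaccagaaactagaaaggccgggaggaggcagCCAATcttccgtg
The Sqrdl promoter lies 6354 bases from the start that the count table gives. The base content differed among these, with 45.0% G and C and 0 CG steps at Sqrdl, 60.3% at Kcnip3, 59.3% at Spg11 and 69.7% with 28 CG steps at Spint1. CCAAT was found 2 times at Sqrdl, 1 time at Kcnip3 and 1 time at Spint1, and in 37.4% of 32851 promoters of the reference table. GGGCGG was found 3 times at Spint1 and 1 time at Spg11, and in 35.7% of all promoters. CCGGAAG was found 2 times at Spg11 and 1 time at Spint1, and in 8.86% of all promoters. TATAAA (13.6% of all promoters) and CACGTG (7.15%) were in none of the 4 windows. No motif was found in all 4. The reference table holds 147 promoters of 123 members, and members had to reach the CPM minimum. The median G and C content of the 147 was 60.3%, against 52.7% over all promoters. Of the 147, 61.9% had GGGCGG, 33.3% CCAAT, 21.1% CCGGAAG, 4.76% CACGTG and 2.04% TATAAA. These are letters in a window, and binding was not measured.

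In global KO against Spred1 wt, leaving out global KO 2 gave 5 calls. Without Spred1 wt 1, the comparison called 11 members, 4 higher and 7 lower in global KO, against 0.186% of all genes tested. With Spred1 wt 1 as the group's only library it called 0 of 134, where 0.0213% of all genes were called. A fit of only the groups compared called 1 and DESeq2 called 8. The share of all genes called by these fits, or without global KO 2, is not given here. The members added when Spred1 wt 1 was left out were Spint1, Snap23, Eif3j1, Vps39, Inafm2, Bloc1s6, Ankrd63 and Exd1.

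Spint1 codes for a membrane-bound inhibitor of the proteases that activate hepatocyte growth factor. It had 1.29, 1.47 and 1.87 CPM in global KO, 1.63, 0.988, 2.19, 1.23 and 1.64 CPM in EC KO, 0.641, 1.38, 1.6, 0.77 and 1.11 CPM in HSC KO, 0.567, 1.14, 0.789, 1.22 and 1.17 CPM in HSC wt, and 0.961, 5.27, 6.83, 3.7 and 4.1 CPM in Spred1 wt. Spred1 wt libraries 2 to 5 exceeded every other library, at levels of few CPM. The difference of global KO from Spred1 wt was -1.43 ± 0.326 (adjusted p = 0.131) with all libraries and -1.69 ± 0.261 (adjusted p = 0.00122) without Spred1 wt 1, and 0.68 ± 0.512 (adjusted p = 0.993) with Spred1 wt 1 alone.

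Snap23, a SNARE protein that fuses vesicles with the cell membrane, had 35.8, 47.7 and 68.2 CPM in global KO, 45.7, 47.6, 41.6, 42.0 and 44.3 CPM in EC KO, 53.4, 56.4, 45.8, 47.7 and 44.7 CPM in HSC KO, 53.1, 54.7, 53.0, 53.7 and 53.5 CPM in HSC wt, and 48.2, 74.9, 84.6, 96.1 and 97.8 CPM in Spred1 wt. The highest library outside Spred1 wt was a global KO library, and it lay below Spred1 wt 2 to 5. The difference was -0.68 ± 0.138 (adjusted p = 0.0542) with all libraries and -0.82 ± 0.115 (adjusted p = 0.000414) without Spred1 wt 1.

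Eif3j1 codes for a subunit of the translation initiation factor eIF3, and it had 37.2, 43.5 and 56.6 CPM in global KO, 49.1, 55.3, 58.2, 47.3 and 36.4 CPM in EC KO, 39.4, 47.3, 48.3, 50.9 and 51.5 CPM in HSC KO, 37.7, 40.3, 48.8, 47.6 and 45.9 CPM in HSC wt, and 35.0, 71.2, 80.0, 117 and 91.2 CPM in Spred1 wt. Spred1 wt 1 was lower than every other library, and Spred1 wt 2 to 5 were higher. The difference of global KO was -0.84 ± 0.186 (adjusted p = 0.121), and -1.03 ± 0.135 (adjusted p = 0.000163) without Spred1 wt 1. A near-identical copy of this gene exists in the mouse genome, so its counts are uncertain.

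Inafm2 went the other way and had 50.9, 52.4 and 54.8 CPM in global KO, 53.5, 57.9, 61.0, 54.8 and 52.0 CPM in EC KO, 46.5, 52.6, 51.5, 56.6 and 54.4 CPM in HSC KO, 52.5, 51.5, 55.5, 53.4 and 53.7 CPM in HSC wt, and 52.6, 40.0, 44.8, 40.1 and 39.5 CPM in Spred1 wt. Spred1 wt 2 to 5 were the lowest of all libraries. Its difference was 0.28 ± 0.0664 (adjusted p = 0.172) with all libraries and 0.35 ± 0.0579 (adjusted p = 0.00234) without Spred1 wt 1. Bloc1s6, which codes for pallidin, a part of the complex that builds lysosome-related organelles, had 44.8, 51.5 and 54.7 CPM in global KO, 52.5, 53.2, 59.2, 57.5 and 52.2 CPM in EC KO, 47.8, 51.8, 52.3, 54.6 and 55.1 CPM in HSC KO, 55.6, 49.0, 50.6, 53.2 and 53.2 CPM in HSC wt, and 57.8, 39.0, 41.7, 35.8 and 34.2 CPM in Spred1 wt. It too was lowest in Spred1 wt 2 to 5, while Spred1 wt 1 was near the top of all libraries. The difference was 0.28 ± 0.0924 (adjusted p = 0.542) with all libraries and 0.41 ± 0.0647 (adjusted p = 0.00125) without that library.

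Vps39, a subunit of the HOPS complex that tethers vesicles to lysosomes, had 87.8, 93.8 and 102 CPM in global KO, 90.3, 89.5, 82.0, 85.7 and 89.3 CPM in EC KO, 88.7, 113, 92.8, 86.5 and 91.4 CPM in HSC KO, 101, 107, 95.9, 98.8 and 89.5 CPM in HSC wt, and 94.1, 113, 131, 120.1 and 125 CPM in Spred1 wt. Spred1 wt 2 to 5 were high, although 1 HSC KO library came close to the lowest of them. Its difference of global KO was -0.31 ± 0.0755 (adjusted p = 0.219), and -0.38 ± 0.0712 (adjusted p = 0.0115) without Spred1 wt 1. Ankrd63 and Exd1, which lie outside the rule for named genes and are named because of their values, chosen after these were seen, were low in Spred1 wt 2 to 5. Ankrd63 had 5.04, 7.74 and 9.54 CPM in global KO and 8.65, 3.23, 0.772, 1.95 and 1.5 CPM in Spred1 wt. Exd1, known from piRNA production in the testis, had 1.4, 1.89 and 2.11 CPM in global KO and 2.44, 0.475, 0.551, 0.584 and 0.845 CPM in Spred1 wt.

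The differences were not spread evenly over the window. In global KO against Spred1 wt, 0 of 18 members below Spred1 had an unadjusted p under 0.05, against 36 of 116 (31.0%) above it. The first of these above Spred1 was Fam98b at 0.13 Mb and the last was Kcnip3 at 10.34 Mb. By distance, 2 of 3 members up to 1 Mb from Spred1, 28 of 80 (35.0%) over 1 to 5 Mb and 6 of 51 (11.8%) over 5 Mb had such a p. In bins of 4 Mb over all genes tested other than Spred1, the share was 14.3% of 7 genes just below Spred1 (1 gene that is no member), 47.5% of 59 genes in the first bin above it, 30.3% of 33 genes in the second, 4.55% of 44 genes in the third and 14.8% of 54 genes in the fourth. In the 10 Mb above the window it was 11.6% of 69 genes. Outside the window, 6.79% of 899 chromosome 2 genes tested had a p under 0.05, and 0 were called. Meis2, also below Spred1, missed the CPM minimum and so is not among the 18. It was higher in Spred1 wt 2 to 5 than in every other library, at up to 3.91 CPM, as given below.

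**Figure D2:**
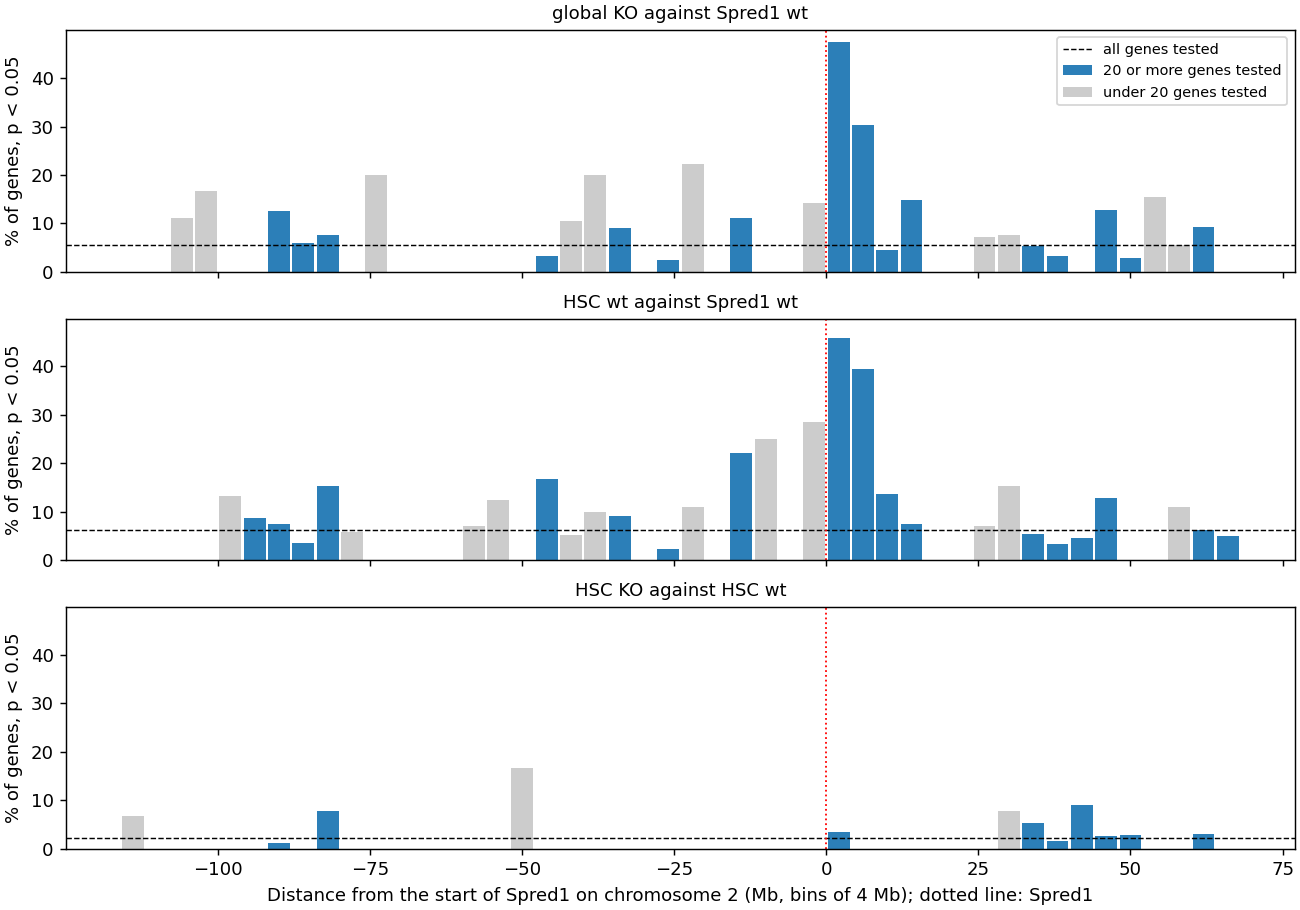
Share of tested genes with an unadjusted p under 0.05 (vertical axis, percent) in bins of 4 Mb along chromosome 2, by distance from the start of Spred1 (horizontal axis, Mb), for 3 comparisons; grey bars hold under 20 genes and the dashed line is the share over all genes. In global KO against Spred1 wt the first 2 bins above Spred1 stand at 47.5% and 30.3%, and in HSC wt against Spred1 wt at 45.8% and 39.4%.

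**Figure D3:**
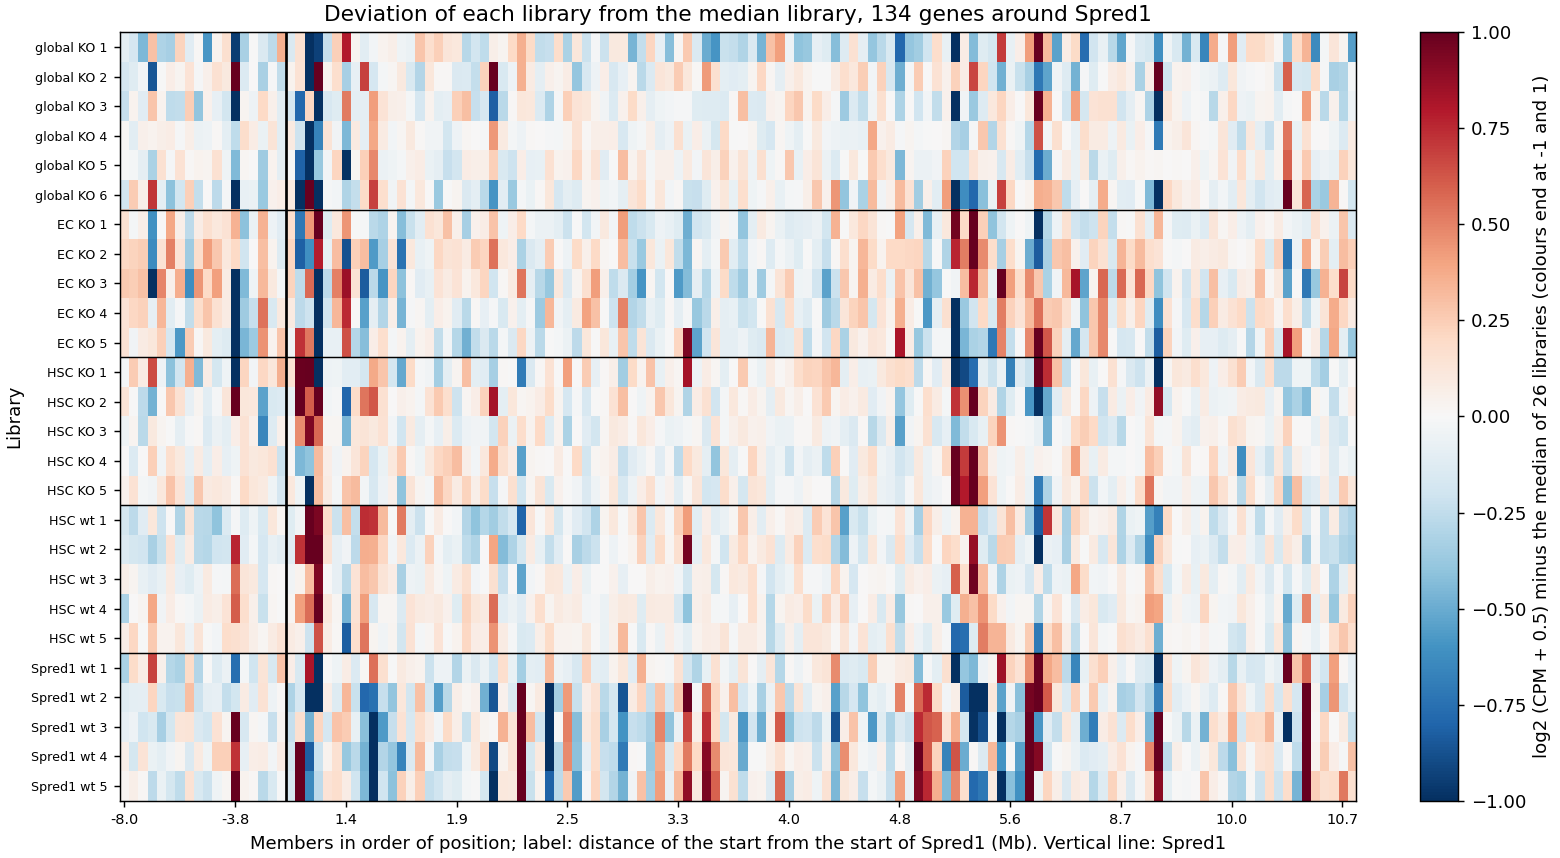
Deviation of each library (rows, by group) from the median of the 26 libraries in log2 (CPM + 0.5) (colour, ending at -1 and 1) for the 134 members in order of position (columns; the vertical line is Spred1). Spred1 wt libraries 2 to 5 share columns of strong colour to the right of the line, which Spred1 wt 1 mostly lacks.

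The distance of a library from the median library was measured as the median absolute deviation, in log2 (CPM + 0.5), over 81 members that start within 6 Mb above Spred1. This stretch was chosen after the pattern was seen, so the values describe it and are no further evidence of it. The distance was 0.0599 to 0.203 in global KO, 0.111 to 0.213 in EC KO, 0.0776 to 0.111 in HSC KO and 0.0674 to 0.142 in HSC wt. In Spred1 wt it was 0.106 in library 1 and 0.226, 0.23, 0.22 and 0.23 in libraries 2 to 5. Over all 134 members it was 0.127 in Spred1 wt 1 and between 0.15 and 0.197 in libraries 2 to 5, and here the groups overlapped. It was 0.0641 to 0.201 in global KO, 0.112 to 0.219 in EC KO, 0.0698 to 0.123 in HSC KO and 0.0759 to 0.141 in HSC wt, with global KO 1 (0.201) and EC KO 3 (0.219) above all Spred1 wt libraries. Over the tested genes outside the window these 4 libraries lay between 0.124 and 0.165 and Spred1 wt 1 at 0.144. The ratio of members to other genes was 1.37, 1.19, 1.06 and 1.43 in Spred1 wt 2 to 5 and 0.881 in Spred1 wt 1, and it lay between 0.688 and 1.11 in the other groups.

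**Figure D4:**
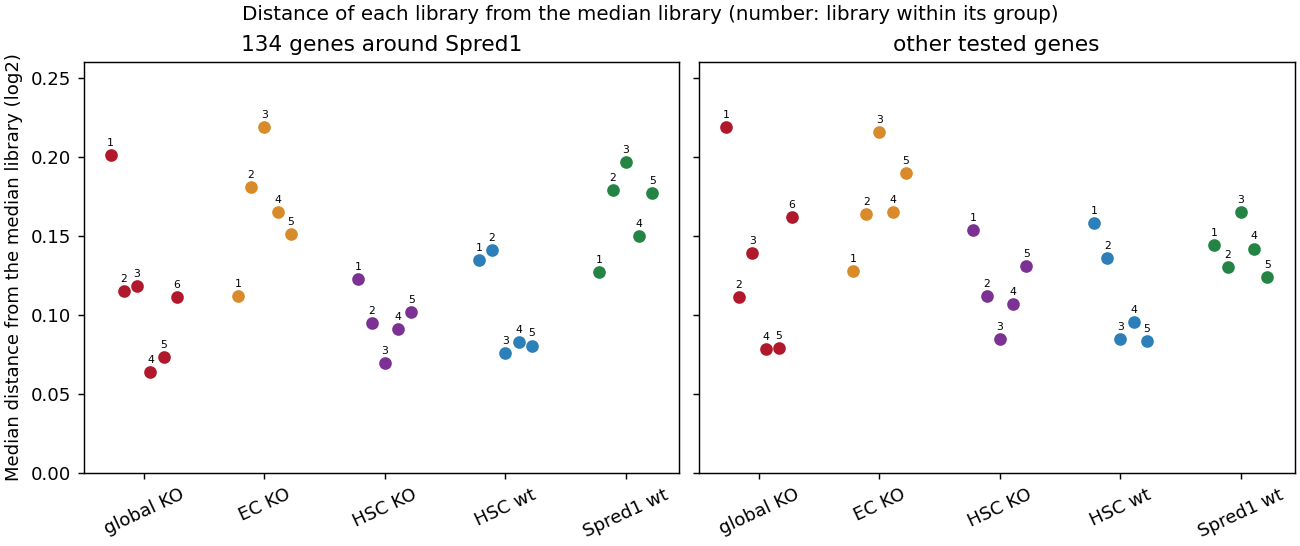
Median distance of each library from the median library (vertical axis, log2, from 0) over the 134 members (left) and over the other tested genes (right), by group; numbers are libraries within a group. Spred1 wt 2 to 5 lie between 0.15 and 0.197 over members and between 0.124 and 0.165 over other genes, while Spred1 wt 1 lies at 0.127 and 0.144; over members, global KO 1 (0.201) and EC KO 3 (0.219) lie farther out than any of these.

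Other measures of the Spred1 wt libraries were set beside this pattern. Over the other groups, mast cell markers (7 of 7 detected) summed to between 1265 and 11490.2 CPM. They summed to 2282 CPM in Spred1 wt 1 and to 3101, 14448, 8108 and 8725 CPM in libraries 2 to 5. Mature neutrophil markers summed to between 16 and 766 CPM over the other groups, to 761 CPM in Spred1 wt 1 and to 35.2, 272, 128 and 69.6 CPM in libraries 2 to 5. B or plasma cell markers summed to between 83.0 and 340.1 CPM in global KO, 53.6 and 355 CPM in EC KO, 26.6 and 848 CPM in HSC KO, 54.4 and 124 CPM in HSC wt, and 170.0 and 459 CPM in Spred1 wt, so that HSC wt and Spred1 wt did not overlap. Macrophage markers summed to between 69.0 and 333 CPM over the other groups and to 162, 148, 168, 117 and 121 CPM in the 5 Spred1 wt libraries. The Xist level of 500 CPM taken as female was reached by 0 global KO, 2 EC KO, 3 HSC KO, 2 HSC wt and 0 Spred1 wt libraries. The part of B or plasma cell and neutrophil markers in the result was not tested. For HSC wt against Spred1 wt, counts from fits with macrophage markers, mast cell markers or sex as a covariate are given in the closing section.

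The nearest members below Spred1 were BC052040, Dph6 and Zfp770. BC052040 had 10.3, 11.4 and 15.8 CPM in global KO, 11.3, 11.2, 12.1, 13.1 and 15 CPM in EC KO, 15.8, 11.1, 12.7, 10.5 and 10.9 CPM in HSC KO, 12.4, 11.4, 12.3, 12.2 and 13.5 CPM in HSC wt, and 15.1, 12.4, 12.5, 12.9 and 12.2 CPM in Spred1 wt. The groups overlapped, and its difference of global KO from Spred1 wt was -0.10 ± 0.114 (adjusted p = 0.992). Dph6, an enzyme of diphthamide synthesis on elongation factor 2, had 32.9, 40.7 and 43.2 CPM in global KO, 38.2, 40.5, 42.4, 35.6 and 40.5 CPM in EC KO, 42.9, 35.6, 36.1, 43.9 and 38.4 CPM in HSC KO, 42.9, 37.5, 39.8, 40.0 and 41.8 CPM in HSC wt, and 35.3, 38.1, 33.6, 38.8 and 35.6 CPM in Spred1 wt. Its groups overlapped too, with a difference of 0.13 ± 0.0705 (adjusted p = 0.917). Zfp770, a zinc finger gene, had 13.9, 15.4 and 20.9 CPM in global KO, 23.2, 22.5, 22.8, 26.6 and 24.9 CPM in EC KO, 21, 12.4, 11.3, 19.6 and 19.3 CPM in HSC KO, 16.3, 16.1, 16.1, 15.5 and 18.4 CPM in HSC wt, and 19.9, 20.1, 17.9, 19.1 and 15 CPM in Spred1 wt. EC KO libraries were the highest, and the difference of EC KO was 0.38 ± 0.141 (adjusted p = 0.0883) from Spred1 wt and 0.54 ± 0.141 (adjusted p = 0.0143) from HSC wt.

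Above Spred1 the nearest members were Fam98b, Rasgrp1 and Thbs1. Fam98b, a component of the tRNA ligase complex, had 77.9, 87.9 and 93.1 CPM in global KO, 98.2, 101, 102, 92.9 and 85.4 CPM in EC KO, 96.4, 82.8, 86.3, 88.3 and 94.0 CPM in HSC KO, 80.1, 80.8, 85.4, 88.5 and 92.6 CPM in HSC wt, and 91.4, 70.4, 74.5, 76.7 and 78.3 CPM in Spred1 wt. Spred1 wt 2 to 5 were low, the EC KO values mostly high, and the difference of EC KO from Spred1 wt passed, at 0.29 ± 0.0713 (adjusted p = 0.0123). That of global KO did not, at 0.14 ± 0.0685 (adjusted p = 0.897). Rasgrp1, an exchange factor that loads RAS with GTP upon diacylglycerol signals, had 1.45, 2.53 and 4.16 CPM in global KO, 2.05, 1.88, 3.02, 3.0 and 6.42 CPM in EC KO, 7.81, 7.96, 5.33, 2.57 and 3.57 CPM in HSC KO, 3.59, 6.41, 3.8, 5.07 and 3.84 CPM in HSC wt, and 3.27, 3.23, 4.19, 8.76 and 9.75 CPM in Spred1 wt. Libraries 4 and 5 of Spred1 wt were the highest of all, and the difference of global KO was -1.06 ± 0.376 (adjusted p = 0.604). Thbs1, which codes for the matrix protein thrombospondin 1, had 0.333, 0.788 and 12.1 CPM in global KO, 5.19, 2.26, 5.74, 3.16 and 5.58 CPM in EC KO, 11.5, 5.92, 7.56, 2.69 and 1.17 CPM in HSC KO, 13.5, 10, 4.73, 5.71 and 3.16 CPM in HSC wt, and 6.92, 1.23, 2.54, 1.88 and 2.21 CPM in Spred1 wt. Its values ranged widely inside each group, and the difference of global KO was 0.09 ± 0.733 (adjusted p = 0.999).

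In HSC KO against HSC wt, 0 of 134 members passed, against 0.0224% of all genes tested. At an unadjusted p under 0.05 there was 1 member, Dnajc17, or 0.746% of members, against 2.16% of all genes, and DESeq2 called 0. Leaving out any 1 library of either group, HSC KO 1 included, also left 0. For these fits and for DESeq2 the share of all genes called is not given here. The median absolute log2 difference was 0.06 over members and 0.08 over all genes. Dnajc17, a co-chaperone gene, averaged 11.1 ± 1.08 CPM in HSC KO and 9.34 ± 1.32 CPM in HSC wt (SD, n = 5 each), with a log2 difference of 0.25 ± 0.103 (adjusted p = 0.999). It overlaps Zfyve19 and Gm14137 on the other strand. Zfyve19, whose product acts in cytokinesis, averaged 40.7 ± 2.49 CPM in HSC KO and 36.3 ± 3.26 CPM in HSC wt, 0.16 ± 0.0877 (adjusted p = 0.999). Slc30a4, a zinc transporter gene, averaged 46.8 ± 8.39 CPM in HSC KO and 56.0 ± 6.42 CPM in HSC wt, -0.26 ± 0.131 (adjusted p = 0.999). Kcnip3, Spg11 and Sqrdl differed by -0.21 ± 0.443, -0.04 ± 0.107 and -0.14 ± 0.187.

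The 2 Spred1-intact groups differed from each other. In HSC wt against Spred1 wt, 3 of 134 members passed (0.0299% of all genes tested), and all of these fell. A fit of only these 2 groups called 0. Kcnip3 differed by -3.65 ± 0.427 (adjusted p = 9.78e-05), Spint1 by -2.10 ± 0.355 (adjusted p = 0.0249) and Sqrdl by -1.04 ± 0.185 (adjusted p = 0.0376). At an unadjusted p under 0.05 there were 41 members, or 30.6%, against 6.35% of all genes, with 1 of 18 below Spred1 and 40 of 116 above it. Such p were not limited to the side above Spred1: in the 10 Mb below the window 8 of 34 genes (23.5%) had one, against 6.9% of chromosome 2 genes outside the window. The same 10 Mb had 3 of 34 (8.82%) in global KO against Spred1 wt. Without Spred1 wt 1 there were 12 members called, against 0.156% of all genes. Of these, 6 were higher in HSC wt (Pak6, Ankrd63, Inafm2, Exd1, Tyro3 and Bloc1s6) and 6 lower (Spint1, Snap23, Eif3j1, Spg11, Sqrdl and Kcnip3). The calls were few and moved with single libraries: leaving out any 1 of HSC wt 1 to 4 or of Spred1 wt 2 and 3 left 1 call. For these fits, and for the fit of HSC wt and Spred1 wt only, the share of all genes called is not given here. These 2 groups also differ in poly(I:C) and Mx1-cre as labelled, and these factors cannot be told apart from the rest.

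With HSC wt in place of Spred1 wt as the control for global KO, 0 of 134 members passed, against 0.194% of all genes tested. At an unadjusted p under 0.05 there were 4 members, or 2.99%, and 6.53% of all genes. Kcnip3 differed by 0.43 ± 0.409 (adjusted p = 0.981), Spg11 by -0.12 ± 0.102 (adjusted p = 0.961), Sqrdl by 0.02 ± 0.178 (adjusted p = 0.996) and Spint1 by 0.67 ± 0.344 (adjusted p = 0.813). Spred1 itself still differed by -1.67 ± 0.145 (adjusted p = 1.47e-07). Both comparisons share the global KO libraries. HSC wt mice had poly(I:C), which is not stated for global KO, and its part cannot be told apart from the rest.

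The effect of global KO (against Spred1 wt) minus that of HSC KO (against HSC wt) was tested as an interaction. It passed for 0 of 134 members (0.0149% of all genes tested), and DESeq2 called 1 member, Kcnip3, for which the share of all genes called is not given here. At an unadjusted p under 0.05 there were 22 members, or 16.4%, against 2.14% of all genes. The smallest p belonged to Kcnip3, -3.02 ± 0.589 (adjusted p = 0.0929), Spg11, -0.58 ± 0.147 (adjusted p = 0.871), and Eif3j1, -0.94 ± 0.27 (adjusted p = 1.0). Without Spred1 wt 1 the test passed for 5 members (0.052% of all genes), which were Ankrd63, Exd1, Eif3j1, Spg11 and Kcnip3. In simulated data the test of the interaction missed many smaller changes, so a lack of calls does not show equal effects.

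**Figure D5:**
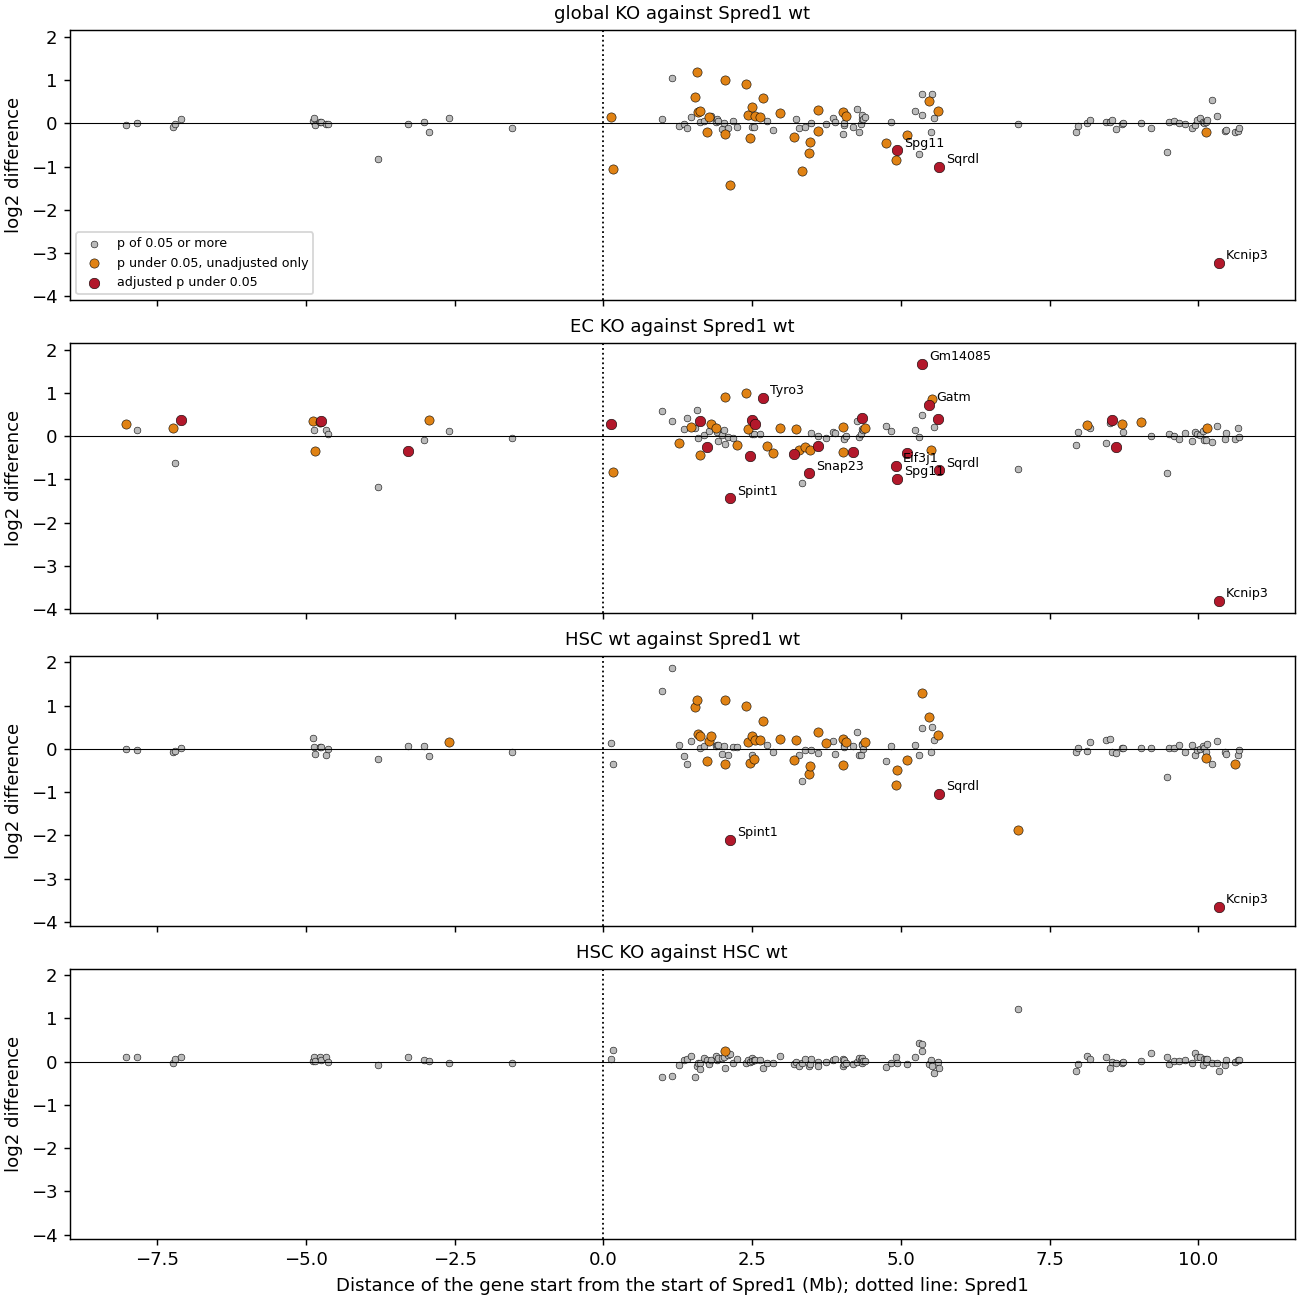
Log2 difference of each member (vertical axis) by distance of its start from that of Spred1 (horizontal axis, Mb) in 4 comparisons; red points passed an adjusted p of 0.05, orange points only an unadjusted one. In global KO and HSC wt against Spred1 wt the coloured points lie almost all above Spred1, in EC KO on both sides, and in HSC KO against HSC wt there is 1.

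In EC KO against Spred1 wt, 26 of 134 members (19.4%) passed, 12 higher and 14 lower, where 7.96% of all genes tested were called. At an unadjusted p under 0.05 there were 58 members, or 43.3%, against 25.1% of all genes, with 9 of 18 below Spred1 and 49 of 116 above it. Without EC KO 3 there were 15 members called and without Spred1 wt 5 there were 16, and a fit of only the groups compared called 8. For these fits the share of all genes called is not given here, so the members cannot be set against it. Without Spred1 wt 1 there were 33 (8.22% of all genes), and with it as the only Spred1 wt library 0 (0.192% of all genes). Against HSC wt, 17 members passed, 7 higher and 10 lower, where 11.3% of all genes were called. Ccdc34, Arhgap11a, Ppip5k1, Hypk, Spg11 and Eid1 passed against both, 6 of 26 and 6 of 17, in fits that share the EC KO libraries. The share of all genes that passed against both is not given here, so these 6 cannot be set against it. HSC wt mice had poly(I:C), which is not stated for EC KO, and its part cannot be told apart from the rest.

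In EC KO, Kcnip3 fell, with a log2 difference of -3.81 ± 0.431 (adjusted p = 5.02e-06) from Spred1 wt, as did Spg11 with -0.98 ± 0.107 (adjusted p = 3.82e-06), Snap23 with -0.86 ± 0.145 (adjusted p = 0.000657) and Spint1 with -1.44 ± 0.343 (adjusted p = 0.0104). Against HSC wt these were -0.16 ± 0.432 (adjusted p = 0.851), -0.48 ± 0.107 (adjusted p = 0.00517), -0.28 ± 0.144 (adjusted p = 0.219) and 0.65 ± 0.354 (adjusted p = 0.236). Sqrdl, Eif3j1 and Vps39 fell too, with differences of -0.79 ± 0.184 (adjusted p = 0.00928), -0.68 ± 0.195 (adjusted p = 0.0329) and -0.42 ± 0.0791 (adjusted p = 0.0019). Inafm2 and Bloc1s6 rose, at 0.36 ± 0.069 (adjusted p = 0.00191) and 0.40 ± 0.096 (adjusted p = 0.0118). Against HSC wt, Sqrdl, Eif3j1, Vps39, Inafm2 and Bloc1s6 did not pass. Sqrdl averaged 10.8 CPM in EC KO and 9.12 CPM in HSC wt, and Eif3j1 49.3 and 44.1 CPM, so both were higher in EC KO by that control. The values per library of these genes are those given above, and Spg11 alone of them lay lower in all EC KO libraries than in every library of the other groups.

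Besides Spg11, 5 members passed against both controls. Arhgap11a, a gene of dividing cells, had 133, 163 and 188 CPM in global KO, 124, 144, 122, 129.7 and 121 CPM in EC KO, 193, 179.5, 183, 184 and 190.1 CPM in HSC KO, 152, 154, 180.4, 187 and 182 CPM in HSC wt, and 164, 176, 149, 156 and 170.0 CPM in Spred1 wt. EC KO was lowest on average but overlapped global KO, with differences of -0.34 ± 0.0782 (adjusted p = 0.00768) from Spred1 wt and -0.41 ± 0.0782 (adjusted p = 0.00141) from HSC wt. Ccdc34 had 29.5, 37.0 and 40.7 CPM in global KO, 36.8, 40.5, 51.5, 46.2 and 43.3 CPM in EC KO, 35.3, 36.6, 37.4, 35.7 and 39.4 CPM in HSC KO, 31.6, 31.2, 34.7, 35.7 and 37.5 CPM in HSC wt, and 38.0, 32.9, 28.9, 34.3 and 34.9 CPM in Spred1 wt. EC KO tended to be highest and overlapped the other groups, and it rose by 0.37 ± 0.0892 (adjusted p = 0.0119) and 0.35 ± 0.0889 (adjusted p = 0.0119). It overlaps the antisense gene Ccdc34os.

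Ppip5k1, a kinase of inositol pyrophosphate synthesis, had 23.4, 25.2 and 26.7 CPM in global KO, 22.3, 21.6, 17.4, 19.8 and 22.2 CPM in EC KO, 31.0, 30.5, 24.5, 21.3 and 25.5 CPM in HSC KO, 28.0, 28.9, 24.5, 30.0 and 27.3 CPM in HSC wt, and 27.8, 26.4, 24.2, 26.4 and 28.2 CPM in Spred1 wt. EC KO overlapped HSC KO and was otherwise lowest, and it fell, with differences of -0.36 ± 0.0891 (adjusted p = 0.0126) against Spred1 wt and -0.42 ± 0.0888 (adjusted p = 0.00323) against HSC wt. Hypk, a chaperone-like partner of the N-terminal acetylase NatA, had 60.2, 70.9 and 89.1 CPM in global KO, 86.9, 94.3, 96.1, 91.2 and 77.3 CPM in EC KO, 71.3, 80.1, 75.6, 80.2 and 78.2 CPM in HSC KO, 64.1, 66.4, 75.2, 75.0 and 82.4 CPM in HSC wt, and 67.6, 56.6, 72.8, 73.9 and 64.0 CPM in Spred1 wt. It rose by 0.41 ± 0.0924 (adjusted p = 0.00699) and 0.30 ± 0.0921 (adjusted p = 0.0385). Eid1, an inhibitor of the acetyltransferase p300, had 90.6, 97.9 and 123 CPM in global KO, 111, 106, 142, 133 and 133 CPM in EC KO, 95.4, 81.2, 82.7, 101 and 93.6 CPM in HSC KO, 97.9, 85.2, 92.9, 85.6 and 94.1 CPM in HSC wt, and 113, 90.2, 100.3, 89.4 and 87.2 CPM in Spred1 wt. It rose by 0.38 ± 0.0934 (adjusted p = 0.0126) and 0.46 ± 0.0933 (adjusted p = 0.00283), and it lies inside Shc4 on the other strand.

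Besides these, 20 members passed against Spred1 wt and not against HSC wt, and 11 against HSC wt and not against Spred1 wt, Zfp770 among the 11. Whether the differences from the 2 controls differ was not tested for these genes. Those that passed against Spred1 wt are given above or follow. Katnbl1, a katanin-like gene of microtubules, had 10.1, 15.4 and 15.8 CPM in global KO, 17.2, 20.7, 17.7, 18.7 and 16.4 CPM in EC KO, 16.1, 14.2, 13.9, 14.3 and 16.3 CPM in HSC KO, 12.6, 12.5, 16.3, 16.2 and 15.2 CPM in HSC wt, and 15.3, 14.3, 13.4, 14.8 and 13.1 CPM in Spred1 wt. All EC KO libraries exceeded all others, and EC KO rose by 0.35 ± 0.109 (adjusted p = 0.0453). Oip5, which helps load the centromere histone, had 14.6, 21.1 and 22.4 CPM in global KO, 19.3, 22.1, 19.7, 20.5 and 16 CPM in EC KO, 19.3, 19.1, 19.4, 22.2 and 18.8 CPM in HSC KO, 17.8, 15.3, 20.2, 20.5 and 19.7 CPM in HSC wt, and 17.2, 16.4, 14.2, 14.4 and 12.9 CPM in Spred1 wt. Spred1 wt tended to be low and overlapped the other groups, and EC KO rose by 0.37 ± 0.112 (adjusted p = 0.0385), with Nusap1 overlapping on the other strand. Rtf1, an elongation factor gene, had 138, 157 and 169 CPM in global KO, 172, 163, 167, 160.5 and 174 CPM in EC KO, 162, 162, 163, 165 and 163 CPM in HSC KO, 164, 161, 161, 154 and 154 CPM in HSC wt, and 149.7, 133, 129, 137 and 142 CPM in Spred1 wt. Spred1 wt 2 to 5 were low and EC KO rose by 0.28 ± 0.0518 (adjusted p = 0.00172).

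Cdan1, the codanin gene mutated in a congenital anaemia of humans, had 45.4, 52.2 and 55.2 CPM in global KO, 52.7, 49.9, 44.9, 50.8 and 50.3 CPM in EC KO, 53.7, 57.7, 55.6, 50.3 and 55.7 CPM in HSC KO, 54.4, 57.1, 57.7, 50.7 and 53.3 CPM in HSC wt, and 50.4, 66.2, 57.3, 57.9 and 59.5 CPM in Spred1 wt. EC KO fell, with a log2 difference of -0.23 ± 0.0665 (adjusted p = 0.0336). Secisbp2l, a relative of a selenoprotein synthesis factor, had 51.8, 62.4 and 70.0 CPM in global KO, 53.4, 56.8, 52.7, 58.5 and 63.0 CPM in EC KO, 70.2, 67.0, 57.4, 62.1 and 58.9 CPM in HSC KO, 66.9, 68.5, 63.1, 58.4 and 63.1 CPM in HSC wt, and 65.4, 64.7, 69.9, 66.3 and 73.8 CPM in Spred1 wt. EC KO fell, with a log2 difference of -0.26 ± 0.0746 (adjusted p = 0.0329). Tyro3, a receptor tyrosine kinase that binds Gas6 and protein S, had 2.78, 3.13 and 4.06 CPM in global KO, 4.39, 4.05, 2.82, 4.66 and 3.95 CPM in EC KO, 2.39, 4.01, 3.35, 2.63 and 2.79 CPM in HSC KO, 3.16, 3.18, 2.97, 3.44 and 4.1 CPM in HSC wt, and 3.46, 1.52, 1.93, 1.75 and 2.15 CPM in Spred1 wt. Spred1 wt 2 to 5 were the lowest libraries, and EC KO rose by 0.88 ± 0.199 (adjusted p = 0.00759).

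Among metabolic genes, Ivd, which breaks down leucine, had 37.6, 47.5 and 55.8 CPM in global KO, 42.8, 43.6, 42.5, 46.6 and 47.2 CPM in EC KO, 45.6, 45.5, 43.3, 44.6 and 47.0 CPM in HSC KO, 39.6, 44.2, 43.9, 48.9 and 45.4 CPM in HSC wt, and 47.2, 56.4, 52.0, 57.4 and 54.5 CPM in Spred1 wt. Spred1 wt was high but overlapped the others, EC KO fell, with a log2 difference of -0.26 ± 0.0806 (adjusted p = 0.0435), and against HSC wt the difference was 0.00 ± 0.0805 (adjusted p = 0.981). Sord, sorbitol dehydrogenase, had 70.4, 82.9 and 94.8 CPM in global KO, 79.6, 83.6, 63.8, 78.7 and 82.5 CPM in EC KO, 77.2, 88.4, 74.7, 84.8 and 81.4 CPM in HSC KO, 87.3, 83.7, 80.2, 86.8 and 87.1 CPM in HSC wt, and 78.1, 95.4, 126, 97.5 and 108 CPM in Spred1 wt. It fell, with a log2 difference of -0.38 ± 0.0975 (adjusted p = 0.0177). Gatm, the first enzyme of creatine synthesis, had 151, 198 and 243 CPM in global KO, 238, 280.3, 251, 232 and 164 CPM in EC KO, 189, 236, 191, 246 and 269 CPM in HSC KO, 172, 185, 249, 276 and 288 CPM in HSC wt, and 194, 93.1, 109, 184 and 122 CPM in Spred1 wt. Spred1 wt 2, 3 and 5 were low, and EC KO rose by 0.73 ± 0.193 (adjusted p = 0.021), against -0.01 ± 0.191 (adjusted p = 0.986) from HSC wt.

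The 2 remaining genes carry no role here. Gm14085 had 8.39, 13 and 23.8 CPM in global KO, 50.4, 39.8, 25.3, 12.9 and 11.8 CPM in EC KO, 8.51, 34.9, 13.3, 45.3 and 41.2 CPM in HSC KO, 18.9, 27.5, 29.5, 18.3 and 13.5 CPM in HSC wt, and 10.7, 2.99, 7.22, 14.9 and 8.45 CPM in Spred1 wt. Values spread widely inside EC KO and HSC KO, and EC KO rose by 1.67 ± 0.477 (adjusted p = 0.033). The gene 1700020I14Rik had 35.3, 45.3 and 52.1 CPM in global KO, 37.9, 42.6, 39.9, 41.5 and 42.3 CPM in EC KO, 58.9, 39.3, 35.3, 44.4 and 44.0 CPM in HSC KO, 43.3, 44.3, 42.4, 46.0 and 45.3 CPM in HSC wt, and 41.6, 59.5, 62.9, 61.6 and 53.0 CPM in Spred1 wt. Spred1 wt 2, 3 and 4 were the highest libraries, and EC KO fell, with a log2 difference of -0.45 ± 0.115 (adjusted p = 0.0168).

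By role, the lists below were compared by counts at an unadjusted p under 0.05 in global KO against Spred1 wt, for which the share over all genes was given above. Of 18 genes of cell division and DNA repair, 1 was higher and 0 lower, with a median log2 difference of 0.03. The member Trp53bp1, a DNA repair gene, was not counted in this list. Trp53bp1 averaged 154.4 CPM in global KO and 136.5 CPM in Spred1 wt. Of 19 genes of membrane traffic and channels, 2 were higher and 5 lower, of which Spg11 and Kcnip3 passed. Of 10 genes of mitochondria and metabolism, 2 were higher and 3 lower, and Sqrdl passed. Of 17 genes of transcription, chromatin and RNA, 1 was higher and 1 lower. Of 11 genes of blood and immune cells, 3 were higher and 3 lower, among them Tyro3, 0.59 ± 0.193 (adjusted p = 0.523), and Ehd4, an endocytic recycling gene, 0.25 ± 0.0773 (adjusted p = 0.44). Of 8 genes of RAS and receptor signalling, 3 were higher and 2 lower, and 0 passed. Rasgrp1, Plcb2, Tyro3 and Dusp2 are in both this list and that of blood and immune cells, so the counts of these lists are not separate. In HSC KO against HSC wt, all 6 lists had 0 members at this p in either direction.

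In EC KO the same lists had, in the order above, 2 rising and 1 falling, 1 and 4, 1 and 3, 2 and 2, 1 and 1, and 1 and 1 member at an adjusted p of 0.05, where 19.4% of all members and 7.96% of all genes were called. Wdr76, a cell cycle gene of the first list, averaged 77.5 ± 6.08 CPM in global KO (n = 6) and 70.1 ± 7.31 CPM in Spred1 wt (SD, n = 5), 0.14 ± 0.0722 (adjusted p = 0.904).

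The members of highest mean CPM were Pdia3, a disulfide isomerase of the endoplasmic reticulum, Zfp106 and Atp8b4, a lipid flippase gene. Pdia3 differed by -0.19 ± 0.14 (adjusted p = 0.958), Zfp106 by -0.09 ± 0.0861 (adjusted p = 0.978) and Atp8b4 by -0.11 ± 0.179 (adjusted p = 0.999) in global KO against Spred1 wt. At the CPM minimum, Capn3 was just inside, with 5 libraries at 1 CPM and a highest value of 1.52 CPM. Just outside were Itpka and Slc27a2, with 4 libraries, and Meis2 and Epb42, with 3. Meis2, a homeobox gene, had 0.0496, 0.184 and 0.362 CPM in global KO, 0.0836, 0.188, 0.0, 0.0 and 0.0 CPM in EC KO, 0.117, 0.263, 0.32, 0.192 and 0.279 CPM in HSC KO, 0.283, 0.24, 0.0464, 0.634 and 0.376 CPM in HSC wt, and 0.0641, 0.997, 3.91, 3.51 and 3.51 CPM in Spred1 wt, so that its 3 libraries at the minimum were all Spred1 wt.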

How the data were processed

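Bulk RNA of sorted LSK cells was sequenced in 26 libraries of 5 groups. The deposited table holds raw counts per gene for each library, with gene positions. Per the submitters' processing notes, the build was mm10 and the tools named are STAR 2.6.0, edgeR 3.28.1, bcl2fastq 2.18.0.12 and HTSeq 0.6.0, and the strand setting is not given in the sources used here.

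The counts were tested with edgeR 4.0.16 in R 4.3.3 (TMM library sizes, filterByExpr with a minimum count of 10, robust quasi-likelihood F-test, 1 fit of 5 group means over 26 libraries, 21 residual degrees of freedom) and Benjamini-Hochberg adjustment over 13379 genes. DESeq2 1.42.0 was an alternative, with other size factors, filters, covariates, controls and libraries left out. The tests were checked on simulated data. The first criterion, on the share of changed genes found, failed for the difference of effects, where many smaller changes were missed. It was then replaced by a criterion on the largest changes only. CPM in the text use TMM-scaled library sizes. Tables and figures used Python 3.11.15, pandas 2.3.3, NumPy 2.4.6 and matplotlib 3.10.9.

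The members and lists were chosen with earlier results of these data known. Named were members with an adjusted p under 0.05 in any of 5 comparisons, the 3 of smallest p in each, the 3 nearest to Spred1 on each side, the 3 of highest mean CPM, and the 2 of smallest p in each role list. The labels state 5 mice per group for the HSC and EC groups. For global KO and Spred1 wt separate mice are not stated, so p-values measure the spread between libraries. Replicate numbers follow the order of the samples and pair nothing. Of all pairs of columns, 0 were identical. Promoters came from RefSeq tables, in which 123 members have an entry. Depth of 14816071 to 26714325 counts per library limits members of few CPM most.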

Additional observations from a re-analysis of the deposited data

Results flagged for a closer look

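Of 195 sets of a named gene in a group, 12 held a library that stood far from the rest of its group. Chance flags about 1 in 20, so the number is near that rate. In Spred1 wt, library 1 was apart at Spg11 (38.4 CPM), BC052040 (15.1 CPM) and Thbs1 (6.92 CPM). In global KO, library 6 was high at Thbs1 (12.1 CPM) and library 1 low at Katnbl1 (10.1 CPM). In EC KO, library 5 was high at Rasgrp1 (6.42 CPM) and low at Zfyve19 (35.4 CPM), and library 3 low at Sord (63.8 CPM). In HSC KO, library 4 was high at Oip5 (22.2 CPM), library 2 high at Vps39 (112.8 CPM) and library 1 low at Slc30a4 (32.2 CPM). In HSC wt, library 5 was high at Zfp770 (18.4 CPM).

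The effects of global KO (against Spred1 wt) and of HSC KO (against HSC wt) lay in opposite directions in every library at Dnajc17 and Slc30a4: each global KO library lay on one side of the Spred1 wt mean and each HSC KO library on the other side of the HSC wt mean. Fitted effects of opposite sign, without this agreement of all libraries, were also seen at other named genes with larger differences of effects, such as Spint1 (-1.61), Rasgrp1 (-1.33), Eif3j1 (-0.94) and Tyro3 (0.74), each with an adjusted p of 1.0. The difference of effects was -0.50 on the log2 scale for Dnajc17 and 0.39 for Slc30a4, both with an adjusted p of 1.0 by edgeR's quasi-likelihood test.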

How the results depend on the processing

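Counts of members called kept within 1.5 times the reported value with RLE size factors and both other filters on low counts. DESeq2 called 8 members in global KO, 9 in HSC wt against Spred1 wt and 1 in the difference of effects. A fit of only the groups compared called 1 in global KO, 8 in EC KO and 0 in HSC wt. With sex, read from Xist, as a covariate, HSC wt had 1. Leaving out each library in turn gave a range of 3 to 11 members for global KO, of 15 to 36 for EC KO and of 1 to 12 for HSC wt. The difference of effects ranged over 0 to 5, and HSC KO stayed at 0. For the fits of this paragraph, except without Spred1 wt 1, the share of all genes called is not given.

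The following settings were chosen after seeing the data, except HSC wt as the control for EC KO. With HSC wt as the control, global KO had 0 members called and EC KO 17, and with the mean of both wild-type groups global KO had 0. With Spred1 wt 1 as the only Spred1 wt library, global KO, EC KO and HSC wt had 0, where the lone library was assumed to vary like the others. Macrophage and mast cell marker covariates gave HSC wt 5 and 8. The share of all genes called is not given for these covariates or for the mean of both wild-type groups. Counts of members in global KO and EC KO with a covariate, sex included, are not given either.

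Log2 differences of named members that changed sign are given in parentheses. In global KO with HSC wt as the control these were Dph6 (-0.03), Thbs1 (-1.24), Inafm2 (-0.02), Spint1 (0.67), Rtf1 (-0.02), Tyro3 (-0.06), Wdr76 (-0.03), Eif3j1 (0.0), Bloc1s6 (-0.05), Sqrdl (0.02) and Kcnip3 (0.43). With Spred1 wt 1 alone they were Fam98b (-0.09), Thbs1 (-1.14), Spint1 (0.68), Tyro3 (-0.10), Ehd4 (-0.02), Snap23 (0.05), Wdr76 (-0.04), Eif3j1 (0.33), Sord (0.09) and Bloc1s6 (-0.20). Thbs1 also changed sign with the mean of both wild-type groups, Thbs1 (-0.57), with the mast cell covariate, Thbs1 (-0.37), and without global KO 3 (-0.02), global KO 6 (-1.09), Spred1 wt 2 (-0.12), Spred1 wt 4 (-0.04). In EC KO with HSC wt as the control they were Ivd (0.0), Spint1 (0.65), Eif3j1 (0.16), Gatm (-0.01) and Sqrdl (0.25), and with Spred1 wt 1 alone Spint1 (0.66), Eif3j1 (0.48) and Bloc1s6 (-0.09). In HSC wt with Spred1 wt 1 alone it was Spint1 (0.02), and in the difference of effects Eif3j1 (0.23) and Spg11 (0.02).

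Over all values and settings, 976 stayed on their side of the threshold, 175 lost the call or fell in count, 20 gained and 38 changed sign. The cause was not tested. No paired analysis was possible because the labels carry no replicate numbers that link libraries of different groups. Genes under a few CPM, such as Spint1, rest on few counts, and so does Kcnip3 outside Spred1 wt 2 to 5. In Spred1 wt 2 to 5, Kcnip3 had 13.6, 8.32, 15.1 and 12.4 CPM. Counts of calls in groups of 5 moved with single libraries.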
